A study of Mus musculus with 12 samples.

Results

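The difference between day 3 and day 5 of embryoid body differentiation was measured in cells without Gcn5. Embryoid bodies are aggregates of embryonic stem cells that leave the pluripotent state and form cells of the germ layers. The comparison set 3 null samples of day 5 (Gcn5-/-, cell line 4C2, strain C57BL/6) against 3 null samples of day 3 from the same line. The genes described are those with a mean normalized count of at least 10 in null day 3 or null day 5, which were 16555 of the 18269 genes in the table. A further 3 samples of each day came from the Gcn5 fx/fx line 4_1 (strain C57BL/6), called floxed here, and served to test whether the day difference itself differed between the lines. Each genotype was represented by 1 cell line, so a difference between genotypes and a difference between these lines cannot be told apart. The labels do not say whether the replicates were separate cultures, so p-values measure the spread between these samples, which may be technical.

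Gcn5, encoded by Kat2a, is the histone acetyltransferase subunit of the SAGA and ATAC coactivator complexes, and Kat2b encodes its close relative PCAF. As pluripotent cells differentiate, the network around Oct4 and Nanog is switched off, and signals of the FGF, Nodal, BMP, Wnt, Notch and retinoic acid families direct cells to the primitive streak, the endoderm or the neural plate. The series was set up around FGF signalling and Myc in this transition, and the null line between its own time points shows what takes place over these days when Gcn5 is missing.

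All values are normalized read counts, that is, reads per gene divided by the size factor of the library. They are comparable between samples for 1 gene but not corrected for gene length, so levels are not compared between genes. The null libraries held 18022071 to 26803369 reads assigned to genes and the floxed libraries 23090915 to 29446068. Differences are given as log2(value + 1), day 5 minus day 3, ± the standard error, with n = 3 samples for each day. The adjusted p is that of limma on all 12 samples after Benjamini-Hochberg adjustment over 17000 genes, and a gene is said to have risen or fallen when it is under 0.05. In bulk samples, fewer cells of a type and less RNA per cell cannot be told apart.

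Of the 16555 genes, 3776 rose from day 3 to day 5 in the null line (22.8%), 3712 fell (22.4%) and 9067 passed in neither direction. Over all called genes, large rises were more frequent than large falls. Among the genes that rose, 1612 did so by at least 2-fold, 637 by at least 4-fold and 278 by at least 8-fold. Among those that fell, the same counts were 1167, 287 and 36. The median size of a called change was 0.86 for rises and 0.60 for falls on the log2 scale, and the median over all 16555 genes was 0.00105. The first principal component of the null samples held 73.9% of the variance and separated the days. A minimum in either day lets in genes that reached it on 1 day only, and for these the choice itself favours a difference. Of the 16555 genes, 15074 reached a mean of 10 on both days, and 3259 of these rose (21.6%) and 3410 fell (22.6%). The shares of all genes, and these for genes on both days, are the ones to set beside the counts of each gene list below. The remaining 850 passed on day 5 only (517 rose) and 631 on day 3 only (302 fell). The fold counts and median sizes above include these genes, and were not made for the 15074 alone. Whether large rises are also more frequent among the 15074 was not tested. The highest null group mean lay between 10 and 11 for 265 genes just inside the minimum, and between 9 and 10 for 259 genes just outside it.

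**Figure D1:**
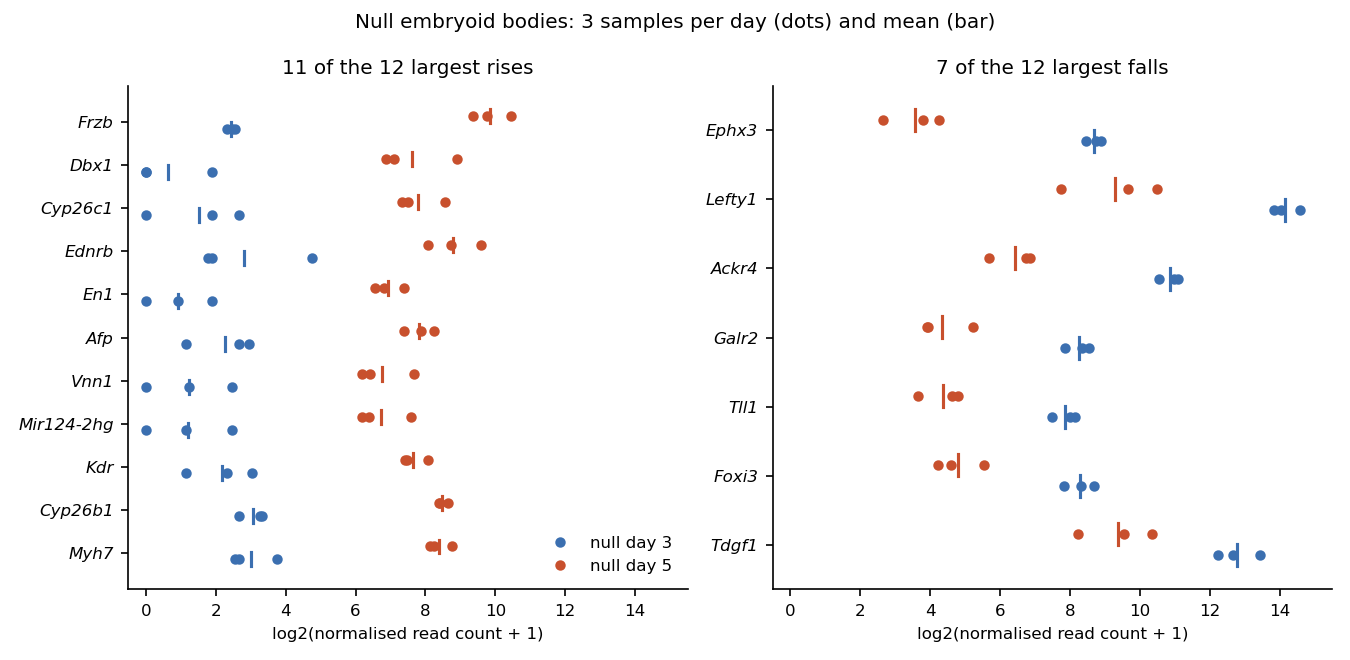
log2(normalized count + 1) in each null sample (x axis) for the genes named here among the 12 largest rises (11 genes) and the 12 largest falls (7 genes), with dots for the 3 samples of each day and a bar for their mean. The days do not overlap for any of these genes, which the choice required, and most of the rising genes start near the bottom of the scale.

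The deleted gene was measured first. Kat2a (ENSMUSG00000020918.14, chromosome 11, 100704746 to 100712465, minus strand, mm10) had 649, 614 and 840.5 normalized counts in the null samples of day 3 and 739, 852 and 860.2 in those of day 5. The floxed samples had 2077, 2226 and 2379.8 at day 3 and 2161, 2391 and 2071 at day 5, so that every null sample lay below every floxed sample on both days. Between the null days the difference was 0.23 ± 0.11 (adjusted p = 0.118), which does not pass the test. Without replicate 3 of null day 3 it was 0.37 with an adjusted p of 0.0103. Gene-level counts do not show which exons the remaining reads cover. Kat2b had 1421, 1769.9 and 1594 in the null samples of day 3 and 1695, 1711 and 1856 in those of day 5, a difference of 0.14 ± 0.14 that does not pass (adjusted p = 0.421). In the floxed line Kat2b went from 1519.9, 1542 and 1232 to 995, 675 and 883 (-0.76 ± 0.14, adjusted p = 0.000662), and the test of the difference between the lines gave 0.90 ± 0.19 with an adjusted p of 0.0595. That p was 0.0357 with the replicate number as a block, 0.0389 without floxed day 3 replicate 3 0.0444 without floxed day 5 replicate 1 and 0.00196 with DESeq2. The other subunits of the complexes moved little. Among the 29 subunit genes measured, 3 were higher and 7 lower, against 22.8% and 22.4% of all genes. The called changes lay within 0.62 of 0 on the log2 scale. Tada2a, an adaptor subunit, had 1645, 1689.5 and 1684 at day 3 and 1103, 1119.6 and 1080.4 at day 5 (-0.60 ± 0.07, adjusted p = 2.1e-05). Trrap, the large scaffold that binds activators, had 6606, 6057 and 7054 at day 3 and 11005, 8705 and 8169.5 at day 5 (0.49 ± 0.13, adjusted p = 0.00891). The count of rising subunits was 4 under upper-quartile or TMM scaling, 5 with a replicate block, and 4 without floxed day 3 replicate 3 or null day 3 replicate 3.

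Pluripotency genes fell more often than they rose. Of 19 genes of the core and primed network, 10 fell and 3 rose, with a median of −0.41, and of 21 naive genes 8 fell and 6 rose, with a median of −0.25. The naive median was −0.67 without null day 5 replicate 1 and 0.23 without null day 5 replicate 2, so its sign rests on single libraries. Pou5f1, which encodes Oct4, had 10791, 10542 and 7169 at day 3 and 2334, 1406 and 1719 at day 5 (-2.39 ± 0.26, adjusted p = 1.82e-05). Nanog had 4989, 3074 and 2952 at day 3 and 1642, 685 and 1375 at day 5 (-1.62 ± 0.28, adjusted p = 0.000511). Every day 5 sample was below every day 3 sample for both genes. Sox2, the partner of Oct4 that neural progenitors keep, had 2247, 1993 and 2045 at day 3 and 1949.7, 1955 and 2071 at day 5, and its difference of -0.07 ± 0.07 does not pass (adjusted p = 0.464). In the floxed line Sox2 rose from 2442, 2156 and 2279 to 3366, 3149.8 and 3591, and the interaction of line and day was -0.63 ± 0.11 (adjusted p = 0.0345), a call lost when any 1 of 9 libraries was left out (adjusted p from 0.0531 to 0.0861). Tdgf1, the Nodal co-receptor Cripto, had 11072, 6489 and 4802 at day 3 and 1309, 302 and 754 at day 5 (-3.39 ± 0.51, adjusted p = 0.000201). Dnmt3b, the de novo DNA methyltransferase of the primed state, had 21947, 25363 and 18737 at day 3 and 8067, 7057 and 6177 at day 5 (-1.63 ± 0.16, adjusted p = 8.34e-06). Dppa2 and Dppa5a, genes of early embryos and stem cells, fell by 2.63 and 2.54 on the log2 scale. The naive genes that rose were Stat3, Klf4, Prdm14, Nr5a2, Gbx2 and Tcl1. Stat3, the transcription factor downstream of LIF, had 1606, 1550.3 and 1846 at day 3 and 3329, 3425 and 3213 at day 5 (1.0 ± 0.13, adjusted p = 8.8e-05). Nr5a2, an orphan nuclear receptor also present in endoderm, had 137, 147 and 179 at day 3 and 441, 315 and 475 at day 5 (1.39 ± 0.22, adjusted p = 0.000266). The days did not overlap for either gene. Gbx2 (1.0 ± 0.32, adjusted p = 0.0204) no longer passed without null day 3 replicate 1 (adjusted p = 0.0765) or 2 (0.0634) or null day 5 replicate 2 (0.0673), and Tcl1 (1.70 ± 0.54, adjusted p = 0.0202) without null day 3 replicate 2 (0.0776) or null day 5 replicate 1 (0.0879) or 3 (0.0895).

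Nodal signalling genes held some of the deepest falls and BMP target genes some of the highest rises. Of 29 genes of both pathways, 14 rose and 10 fell. Of the 25 that reached a mean of 10 on both days, 10 rose and 10 fell. Nodal, the ligand that maintains the epiblast and induces the streak, had 2054, 1396 and 2027 at day 3 and 288, 104 and 291 at day 5 (-3.12 ± 0.36, adjusted p = 3.26e-05). Its feedback inhibitors Lefty1 and Lefty2 are direct targets of the pathway. Lefty1 had 16919.7, 14617 and 24590.4 at day 3 and 807, 212 and 1448 at day 5 (-4.86 ± 0.58, adjusted p = 3.87e-05), and Lefty2 had 3529, 3849 and 4029.7 at day 3 and 831, 224 and 900.3 at day 5 (-2.78 ± 0.47, adjusted p = 0.00045). Foxh1, the DNA-binding partner of the Smad proteins in Nodal responses, had 1723, 1617 and 1489.6 at day 3 and 616, 527 and 492 at day 5 (-1.57 ± 0.11, adjusted p = 1.84e-06). Each day 5 sample of these genes lay below each day 3 sample. On the BMP side, the ligand gene Bmp2 had 13.4, 12 and 13.4 at day 3 and 162, 136 and 125 at day 5 (3.34 ± 0.30, adjusted p = 5.46e-06) and Bmp4 had 28.1, 16.1 and 16.1 at day 3 and 80.2, 71.1 and 35.7 at day 5 (1.55 ± 0.34, adjusted p = 0.00261). The Id genes encode inhibitors of basic helix-loop-helix factors and are standard targets of BMP signalling. Id1 had 20.8, 37.5 and 51.9 at day 3 and 729, 1271 and 653 at day 5 (4.58 ± 0.40, adjusted p = 4.95e-06), and Id3 had 41.5, 83 and 86.7 at day 3 and 1871, 2910.3 and 1306 at day 5 (4.82 ± 0.35, adjusted p = 1.84e-06). Secreted antagonists rose as well. Fst, which encodes the activin-binding follistatin, had 119, 199 and 127 at day 3 and 1073, 1661 and 1565 at day 5 (3.28 ± 0.24, adjusted p = 1.87e-06), and Nog, a BMP antagonist, had 4.89, 5.36 and 2.68 at day 3 and 52, 41.9 and 61.5 at day 5 (3.34 ± 0.41, adjusted p = 4.44e-05). The inhibitory Smads went the other way, with Smad7 at -1.24 ± 0.22 and Smad6 at -0.98 ± 0.18 (adjusted p = 0.000589 and 0.000941).

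Primitive streak genes were split. Of 22 measured, 8 rose and 7 fell, and of the 14 at a mean of 10 or more on both days 4 rose and 6 fell. T, which encodes Brachyury, had 48.9, 62.9 and 46.5 at day 3 and 19.2, 47.8 and 13.4 at day 5, with 1 day 5 sample inside the range of day 3, and its difference of -1.14 ± 0.59 does not pass (adjusted p = 0.136, 0.0361 with the replicate number as a block and 0.0392 without floxed day 5 replicate 2). Mixl1, a homeobox gene of the streak, had 41.5, 42.8 and 51 at day 3 and 22.6, 17.5 and 23.2 at day 5 (-1.07 ± 0.30, adjusted p = 0.0108). Wnt3, the Wnt ligand needed to start the streak, had 164, 125 and 105 at day 3 and 63.3, 33.8 and 23.2 at day 5 (-1.78 ± 0.32, adjusted p = 0.000676). Kdr, the VEGF receptor of early mesoderm and endothelium, went the opposite way with 1.22, 4.02 and 7.15 at day 3 and 168, 178 and 267 at day 5 (5.48 ± 0.46, adjusted p = 3.78e-06). Pdgfra, a receptor of paraxial mesoderm and primitive endoderm, had 119, 87 and 135 at day 3 and 498, 553 and 748 at day 5 (2.39 ± 0.41, adjusted p = 0.000482). Evx1 had 2 reads in the day 3 libraries together, and its day 5 level was 14.5 times the day 3 level with an exact 95% counting interval of 3.69 to 125.

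FGF ligands and receptors were measured because the series names this pathway. Of 20 genes, 6 rose and 4 fell, against 22.8% and 22.4% of all genes, and with the replicate number as a block 9 rose and 4 fell. Fgf4, the ligand that pushes stem cells out of the naive state, had 2203, 1189 and 945 at day 3 and 455, 96.7 and 277 at day 5 (-2.55 ± 0.50, adjusted p = 0.00122). Fgf5, the marker of the primed epiblast, had 79.4, 115 and 82.3 at day 3 and 142, 68.7 and 115 at day 5, and its difference of 0.19 ± 0.30 does not pass (adjusted p = 0.633). Fgf8, a ligand of the streak and the midbrain border, had 226, 177 and 299.5 at day 3 and 88.2, 119 and 109.6 at day 5 (-1.12 ± 0.38, adjusted p = 0.0272). It no longer passed without null day 3 replicate 1 (adjusted p = 0.0624) or 3 (0.0963) and without null day 5 replicate 1 (0.0835) or 3 (0.0530). The receptor genes Fgfr2 and Fgfr3 rose, Fgfr2 with 734, 858 and 937 at day 3 and 1376, 1889 and 1424 at day 5 (0.88 ± 0.18, adjusted p = 0.00175) and Fgfr3 with 111, 76.3 and 103 at day 3 and 214, 304 and 391 at day 5 (1.61 ± 0.38, adjusted p = 0.00399), while Fgfr1 was at 0.12 ± 0.16 (adjusted p = 0.573). Of 23 genes that respond to or restrain ERK, the kinase below the FGF receptors, 7 rose and 5 fell, against the same shares of all genes. Their median was −0.02. The Ets factors of the Pea3 family, which FGF signalling induces, were lower on day 5. Etv4 had 448, 493 and 453 at day 3 and 93.8, 35 and 72.2 at day 5 (-2.89 ± 0.37, adjusted p = 5.9e-05), Etv5 had 3648, 3185 and 2346 at day 3 and 1577, 758 and 1344 at day 5 (-1.36 ± 0.29, adjusted p = 0.00207) and Etv1 had 473, 449.8 and 371 at day 3 and 229, 139.8 and 182 at day 5 (-1.25 ± 0.21, adjusted p = 0.000462). The immediate-early genes Egr1 and Fos rose. Egr1 had 104, 129 and 117 at day 3 and 348, 354 and 258 at day 5 (1.44 ± 0.24, adjusted p = 0.00039), and Fos had 59.9, 34.8 and 34.9 at day 3 and 121, 117 and 137 at day 5 (1.55 ± 0.24, adjusted p = 0.000239). Dusp6 and Spry4, which restrain the pathway, did not pass in either direction. Dusp6, an ERK phosphatase, had 1057, 1275 and 1113 at day 3 and 1322, 1476 and 1455 at day 5 (0.31 ± 0.15, adjusted p = 0.117), and Spry4 had 175, 258 and 144 at day 3 and 194, 88.5 and 89.1 at day 5 (-0.69 ± 0.34, adjusted p = 0.115). Spry4 was called without null day 5 replicate 1 (−1.06, adjusted p = 0.0174), and Dusp6 was called in a fit of the null samples only (adjusted p = 0.0282) and without floxed day 5 replicate 2 (0.00922).

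Wnt genes rose more often than they fell. Of 35 ligands, modulators and targets, 17 rose and 5 fell, and of the 26 at a mean of 10 or more on both days 9 rose and 5 fell. Frzb, a secreted Wnt antagonist, had the largest rise among the genes chosen by size, with 4.89, 4.02 and 4.47 at day 3 and 866, 1397 and 659.6 at day 5 (7.41 ± 0.68, adjusted p = 6.78e-06). Wls, the carrier that brings Wnt proteins to the cell surface, had 631, 569 and 627 at day 3 and 3766, 4879 and 3487 at day 5 (2.72 ± 0.19, adjusted p = 1.59e-06). Axin2, a general target and feedback inhibitor of the pathway, had 433, 459 and 504 at day 3 and 1024, 1219 and 838 at day 5 (1.13 ± 0.15, adjusted p = 6.94e-05). Wnt3a, a ligand of the tail bud, had 3.67, 4.02 and 4.47 at day 3 and 112, 156 and 90.03 at day 5 (4.54 ± 0.39, adjusted p = 4.57e-06). Wnt1, a ligand of the midbrain and dorsal neural tube, had no read in the day 3 libraries and 50.9, 89.7 and 45.5 normalized counts at day 5. Its day 5 level was 54.0 times the level of 3 reads over the 3 day 3 libraries. Wnt8a and Lef1 fell. Wnt8a had 435, 691 and 825 at day 3 and 111, 192 and 203 at day 5 (-1.94 ± 0.53, adjusted p = 0.00956), and Lef1, the transcription factor that mediates Wnt responses, had 1035, 1003 and 762 at day 3 and 546, 340.2 and 325 at day 5 (-1.23 ± 0.20, adjusted p = 0.000374).

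Endoderm markers were higher on day 5. Of 29 markers of visceral and parietal endoderm, 23 rose and 1 fell. Only 20 of them had a mean of at least 10 on both days, and 14 of these rose and 1 fell. The median of the 29 was 2.04 in the null line and 2.08 in the floxed line. Afp, the alpha-fetoprotein gene of visceral endoderm, had 1.22, 6.69 and 5.36 at day 3 and 165, 232 and 300.4 at day 5 (5.57 ± 0.69, adjusted p = 4.96e-05). Ttr, which encodes the thyroid hormone carrier transthyretin, had 3.67, 10.7 and 4.47 at day 3 and 122, 141 and 177 at day 5 (4.45 ± 0.73, adjusted p = 0.000356). Afp and Ttr, both genes of secreted proteins, were thus low on day 3 and higher in all 3 samples of day 5. Basement membrane genes started higher. Lama1 had 818, 672 and 1096 at day 3 and 7800.0, 7605 and 10312 at day 5 (3.33 ± 0.30, adjusted p = 6.08e-06), and Col4a2 had 936, 734 and 1059.5 at day 3 and 4552, 4974 and 6381 at day 5 (2.54 ± 0.24, adjusted p = 7.13e-06). Apoa2 was the member that fell (-1.49 ± 0.23, adjusted p = 0.000236). Of 15 genes of the definitive endoderm list, all at a mean of 10 or more on both days, 9 rose and 2 fell. Sox17, a defining factor of endoderm, had 14.7, 14.7 and 15.2 at day 3 and 119.8, 149 and 188 at day 5 (3.25 ± 0.35, adjusted p = 1.79e-05). Cxcr4, a chemokine receptor of endoderm and migrating mesoderm, had 61.1, 50.9 and 84.9 at day 3 and 267, 489 and 517 at day 5 (2.65 ± 0.35, adjusted p = 8.43e-05). Krt8, a keratin of simple epithelia, had 996, 1313 and 545 at day 3 and 9108, 9786 and 3732 at day 5 (2.95 ± 0.53, adjusted p = 0.000672). The epithelial genes Epcam and Esrp1 went down, Epcam with 8842, 9227 and 8509 at day 3 and 4039.6, 4259 and 4176 at day 5 (-1.09 ± 0.08, adjusted p = 2.5e-06) and Esrp1, a splicing factor of epithelial cells, with 2186, 2433 and 1768 at day 3 and 975, 943 and 593 at day 5 (-1.37 ± 0.20, adjusted p = 0.000181). Of 25 genes of epithelial junctions and identity, 9 rose and 5 fell, and with the replicate number as a block 10 rose and 9 fell.

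Neural genes formed a large rising group. Of 36 measured markers, 27 rose and 3 fell, with a median of 3.25, but 17 of them reached the minimum on day 5 only. Of the 18 at a mean of 10 or more on both days, 10 rose and 2 fell. Sox1, the first marker of the neural plate, had 925, 525 and 1059.5 at day 3 and 1589, 1849 and 2305 at day 5 (1.24 ± 0.35, adjusted p = 0.0118), which no longer passed once null day 3 replicate 2 was removed (adjusted p = 0.0608). Pax6 had 226, 126 and 283 at day 3 and 316, 404 and 747 at day 5, and its difference of 1.18 ± 0.49 does not pass (adjusted p = 0.0638), but it did in a fit of the null samples only (0.0175), with the replicate number as a block (0.00277), without floxed day 3 replicate 2 (0.0222) or without floxed day 3 replicate 3 (0.0394). Nes, which encodes the intermediate filament nestin, had 2831, 4224 and 2339.9 at day 3 and 3152, 3838 and 3687 at day 5 (0.22 ± 0.27, adjusted p = 0.522) and does not pass. The members that rose also included Pax3, Pou3f2 and Crabp1. Pax3, a factor of the dorsal neural tube and neural crest, had 6.11, 4.02 and 19.7 at day 3 and 298, 437 and 357 at day 5 (5.32 ± 0.51, adjusted p = 9.17e-06). Pou3f2, a POU factor of neural progenitors, had 7.33, 24.1 and 30.4 at day 3 and 337, 492 and 682 at day 5 (4.69 ± 0.62, adjusted p = 7.88e-05). Crabp1, which binds retinoic acid inside the cell, had 149, 161 and 399 at day 3 and 1342, 4516 and 4326 at day 5 (3.80 ± 0.87, adjusted p = 0.00341). Several regional genes began from a few reads. Dbx1, a homeobox gene of the intermediate spinal cord, had 0, 0 and 2.68 normalized counts at day 3, from 3 reads in all, and 136, 115 and 479.6 at day 5, a ratio of 236 with an exact 95% counting interval of 80.6 to 1149. En1, which marks the midbrain and hindbrain border, had 0, 2.68 and 0.894 at day 3 and 112, 167 and 92.7 at day 5, a ratio of 108 with an interval of 36.7 to 526. These intervals cover counting error only. The members that fell were Zic5, Olig2 and Rax. Zic5 had 1922, 2024 and 1605 at day 3 and 614, 522 and 445 at day 5 (-1.82 ± 0.13, adjusted p = 1.59e-06), and Olig2, a factor of ventral progenitors, had 381, 414 and 214 at day 3 and 129, 67.6 and 91.8 at day 5 (-1.79 ± 0.27, adjusted p = 0.000189). Of 17 neural crest and dorsal markers, 9 rose and 1 fell, and of the 12 at a mean of 10 or more on both days 4 rose and 1 fell. Sox9 had 18.3, 25.4 and 30.4 at day 3 and 274, 274 and 193 at day 5 (3.28 ± 0.44, adjusted p = 8.33e-05).

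Notch and proneural genes accompanied the neural markers. Of 25 measured genes, 18 rose and 4 fell, and of the 22 at a mean of 10 or more on both days 15 rose and 4 fell. The count of falls was 2 without null day 3 replicate 1 or without null day 5 replicate 1 or 2. Hes5, a Notch target of neural progenitors, had 19.6, 20.1 and 26.8 at day 3 and 139, 278 and 423 at day 5 (3.48 ± 0.54, adjusted p = 0.000253). Lfng, the glycosyltransferase that tunes Notch receptors, had 72.1, 49.5 and 68.8 at day 3 and 193, 301 and 352 at day 5 (2.11 ± 0.27, adjusted p = 6.41e-05). Neurod1, a factor of differentiating neurons, had 31.8, 44.2 and 32.2 at day 3 and 358, 532 and 295 at day 5 (3.39 ± 0.29, adjusted p = 4e-06). Among the receptors, Notch1 rose with 1942, 1881 and 2318 at day 3 and 3957, 3662 and 3682 at day 5 (0.88 ± 0.17, adjusted p = 0.000924), whereas Notch3 fell with 12853, 8883 and 13220.1 at day 3 and 5197, 3085 and 3916 at day 5 (-1.53 ± 0.21, adjusted p = 9.68e-05). Of 16 Hedgehog pathway genes, 8 rose and 2 fell. Boc, a co-receptor for the ligand, had 198, 149.9 and 208 at day 3 and 748, 979 and 1089 at day 5 (2.33 ± 0.38, adjusted p = 0.000363). The target Gli1 was at -0.12 ± 0.31 and does not pass (adjusted p = 0.783). Primary cilia carry Hedgehog signalling, and of 28 cilium genes 21 rose and 1 fell, all of them measured at a mean of 10 or more on both days, with a median of 0.49. Ift140, a subunit of the retrograde transport complex, had 632, 527 and 764 at day 3 and 1243, 1298 and 1345 at day 5 (1.03 ± 0.14, adjusted p = 0.000108). Rfx3, a transcription factor of cilium genes, had 753, 534 and 566 at day 3 and 1363, 1177 and 1149 at day 5 (1.0 ± 0.15, adjusted p = 0.000202).

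In the retinoic acid pathway the degrading enzymes rose and the synthesizing enzymes moved both ways. Of 20 genes, 8 rose and 5 fell, and of the 17 at a mean of 10 or more on both days 5 rose and 5 fell. The 3 Cyp26 enzymes break down retinoic acid. Cyp26a1 had 51.3, 28.1 and 69.7 at day 3 and 400.1, 662 and 697 at day 5 (3.58 ± 0.55, adjusted p = 0.000217), Cyp26b1 had 8.55, 5.36 and 8.94 at day 3 and 340.2, 332 and 401 at day 5 (5.40 ± 0.30, adjusted p = 9.57e-07) and Cyp26c1 had 0, 2.68 and 5.36 at day 3 and 179.7, 379 and 159 at day 5 (6.28 ± 0.79, adjusted p = 5.52e-05). Aldh1a2 and Aldh1a3 make it from retinaldehyde. Aldh1a2 had 31.8, 64.3 and 58.1 at day 3 and 17, 8.16 and 16 at day 5 (-1.83 ± 0.35, adjusted p = 0.000949), and Aldh1a3 had 57.4, 54.9 and 46.5 at day 3 and 9.04, 10.5 and 20.5 at day 5 (-1.99 ± 0.37, adjusted p = 0.000802). A further synthetic enzyme, Aldh1a1, rose from 1.22, 4.02 and 6.26 to 21.5, 16.3 and 13.4 (2.04 ± 0.52, adjusted p = 0.00627), or by 1.35 with a pseudocount of 5. The target genes did not go 1 way. Stra8, a target best known from germ cells, had 1369.9, 1558 and 3227 at day 3 and 373, 354 and 405 at day 5 (-2.33 ± 0.32, adjusted p = 0.000108). Hoxa2 had 6.11, 5.36 and 20.6 at day 3 and 46.3, 157 and 121 at day 5 (3.29 ± 0.73, adjusted p = 0.00267) and Hoxb2 had 77, 37.5 and 117 at day 3 and 224, 521 and 685 at day 5 (2.61 ± 0.60, adjusted p = 0.00344). Of 12 measured Hoxa and Hoxb genes, 2 rose and 3 fell, against 22.8% and 22.4% of all genes. Of these 12, 5 reached the minimum on day 3 only, and of the 7 on both days 2 rose and 1 fell. With the replicate number as a block 4 of the 12 rose and 5 fell. The count of falls was 1 without null day 3 replicate 1 or null day 5 replicate 1 or 2, and 4 without null day 5 replicate 3. Of the Hoxc and Hoxd genes, 2 were measured. Hoxd13 had 14.7, 10.7 and 14.3 at day 3 and 2.26, 1.17 and 0.891 at day 5 (-2.57 ± 0.53, adjusted p = 0.00173), or −1.5 with a pseudocount of 5, and Hoxd8 does not pass (0.69 ± 0.63, adjusted p = 0.398). Among the Hox cofactors of the Meis, Pbx and Pknox families, 4 of 9 rose and none fell by limma. At an unadjusted p under 0.05 1 fell, with edgeR 0 and with DESeq2 1. With the replicate number as a block 2 fell, and 1 fell in a fit of the null samples only, with a minimum mean of 50 and without floxed day 5 replicate 2 or 3. Meis1 had 18.3, 14.7 and 82.3 at day 3 and 492, 686 and 1087 at day 5 (4.61 ± 0.84, adjusted p = 0.000768), and Meis2 had 273, 145 and 446 at day 3 and 1139, 1723 and 1770.3 at day 5 (2.54 ± 0.47, adjusted p = 0.000822).

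Mesodermal derivatives were mixed. Of 11 cardiac markers, 7 rose and 3 fell, and of the 8 at a mean of 10 or more on both days 5 rose and 2 fell. Myh7, a ventricular and slow myosin heavy chain, had 4.89, 5.36 and 12.5 at day 3 and 432, 281 and 300.4 at day 5 (5.38 ± 0.52, adjusted p = 8.67e-06), but Myh6, the atrial chain, had 83.1, 75 and 86.7 at day 3 and 11.3, 14 and 21.4 at day 5 (-2.36 ± 0.38, adjusted p = 0.000323). Of the defining markers, Nkx2-5 was lower on day 5, with 29.3, 16.1 and 42 at day 3 and 6.78, 3.50 and 13.4 at day 5 (-1.82 ± 0.61, adjusted p = 0.0273). It no longer passed without null day 3 replicate 1 (adjusted p = 0.0713) or 3 (0.0967) and without null day 5 replicate 1 (0.0605) or 2 (0.113). Myl7 had 57.4, 49.5 and 30.4 at day 3 and 18.1, 17.5 and 16.9 at day 5 (-1.29 ± 0.34, adjusted p = 0.00732), and Tnnt2 was below the minimum in both null groups. Of 20 blood and endothelial markers, 9 rose and 5 fell, and of the 15 at a mean of 10 or more on both days 4 rose and 5 fell. Hbb-bh1, an embryonic globin, had no read in the day 3 libraries and 32.8, 67.6 and 26.7 at day 5, which is 36.5 times the level of 3 reads over the 3 day 3 libraries. The erythroid factor Gata1 was below the minimum. With a minimum mean of 50, 2 of the blood and endothelial genes rose and 5 fell. Of 18 genes of mesenchyme, limb and somite, 13 rose and 1 fell, and of the 14 on both days 9 rose and 1 fell. Col1a2 had 55, 81.7 and 54.5 at day 3 and 2422, 1654 and 864 at day 5 (4.57 ± 0.38, adjusted p = 3.44e-06), and Acta2, smooth muscle actin, had 18.3, 21.4 and 20.6 at day 3 and 678, 437 and 536 at day 5 (4.69 ± 0.51, adjusted p = 2.12e-05). Tcf15, a somite factor that also marks primed epiblast cells, had 183, 134 and 174 at day 3 and 30.5, 23.3 and 33 at day 5 (-2.46 ± 0.33, adjusted p = 8.76e-05). Markers of fibroblasts, which are often used as feeder cells for embryonic stem cells, were checked as a whole: 6 of 14 rose and 1 fell, and their summed normalized count ranged from 2837 to 3186 at day 3 and from 4323 to 5639 at day 5, with none of the defining markers Col1a1, Col1a2, Col3a1 and Thy1 at 0 on either day. Col1a1, Col1a2 and Col3a1 rose and Thy1 fell (-1.78 ± 0.48, adjusted p = 0.00901). Col3a1 was at 1.47 (adjusted p = 0.0133), or 0.96 with a pseudocount of 5. The part of feeder cells in these results was not tested. Of 12 trophoblast markers, 5 rose and 2 fell, and with a minimum mean of 50 these were 3 and 2. Krt7 had 99, 72.3 and 88.5 at day 3 and 244, 440.4 and 273 at day 5 (1.83 ± 0.29, adjusted p = 0.000284).

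**Figure D2:**
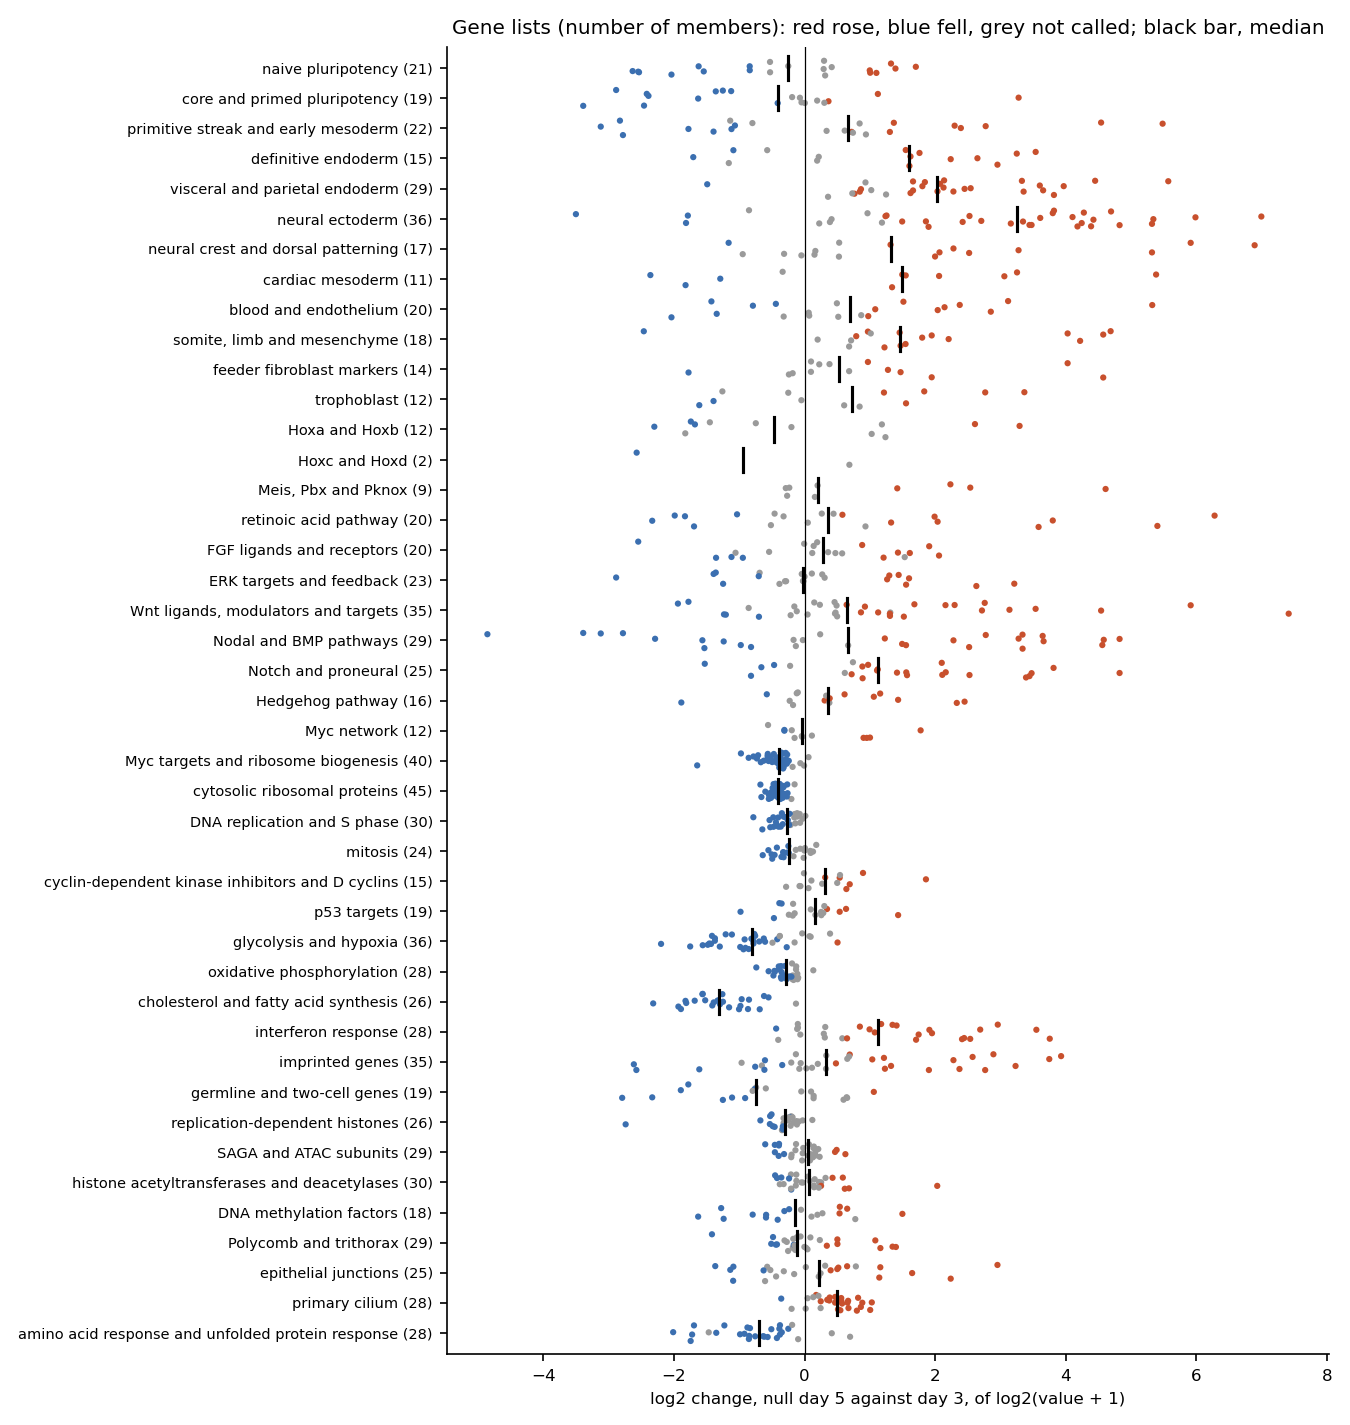
Day 5 minus day 3 in the null line on the log2(value + 1) scale for the measured members of each gene list, 1 point per gene, coloured by whether it rose, fell or did not pass, with the list median as a bar. Neural and visceral endoderm genes lie mostly to the right with medians of 3.25 and 2.04. All cholesterol genes (−2.32 to −0.13) and all cytosolic ribosomal protein genes (−0.68 to −0.15) lie to the left of 0. Glycolysis and hypoxia genes run from −2.20 to 0.50.

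Growth and biosynthesis genes fell together in small steps. Among 40 targets of Myc and genes of ribosome assembly, 36 fell and none rose, with a median of −0.40. In the floxed line 14 of the 40 fell and 2 rose, with a median of −0.17. Differences between the lines in a list's median were not tested here or below. Of 45 cytosolic ribosomal proteins, 43 fell, with a median of −0.41 in the null and −0.36 in the floxed line. All of these genes had a mean of at least 10 on both days. Odc1, the ornithine decarboxylase of polyamine synthesis and a classical Myc target, had 24989.7, 24621 and 21767 at day 3 and 12701, 12006 and 11564 at day 5 (-0.97 ± 0.07, adjusted p = 2.21e-06). Tfrc, the transferrin receptor, had 15325, 12179 and 12168 at day 3 and 5215, 3884 and 3664 at day 5 (-1.64 ± 0.16, adjusted p = 9.59e-06). Fbl, which encodes the nucleolar methyltransferase fibrillarin, had 3226, 3437 and 3153 at day 3 and 2310.3, 2299.8 and 2344 at day 5 (-0.50 ± 0.06, adjusted p = 4.75e-05). Rplp0, a protein of the large ribosomal subunit, had 56515, 58921 and 54815 at day 3 and 33324, 36152 and 37094 at day 5 (-0.68 ± 0.07, adjusted p = 1.19e-05). The Myc gene itself had 127, 131 and 79.6 at day 3 and 147, 120.0 and 68.6 at day 5, with overlapping days, and a difference of -0.04 ± 0.30 that does not pass (adjusted p = 0.919). Its sign changed without null day 3 replicate 1 (0.06) or 2 (0.08) and without null day 5 replicate 3 (0.27). For Myc the interaction with the line was -1.14 ± 0.42 with an adjusted p of 0.243, and 0.0201 with the replicate number as a block. Of 12 genes of the Myc network, 4 rose and 2 fell, and without null day 5 replicate 3 there were 3 and 0. Mycn, the relative active in neural and mesodermal progenitors, had 1033, 1275 and 1152 at day 3 and 2057, 2105 and 2539 at day 5 (0.95 ± 0.11, adjusted p = 3.69e-05). Mxd4, a repressor that competes for the partner of Myc, had 155, 177 and 367 at day 3 and 722, 785 and 721 at day 5 (1.78 ± 0.25, adjusted p = 0.000126).

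Cell cycle genes showed the same direction. Of 30 genes of DNA replication and S phase, 19 fell and none rose, with a median of −0.27 in the null and −0.07 in the floxed line. Of 24 mitotic genes, 13 fell and none rose. Ccne1, the cyclin of S phase entry, had 3084, 3584 and 3399 at day 3 and 2122, 1868 and 1853 at day 5 (-0.78 ± 0.08, adjusted p = 1.48e-05). Mcm2, a subunit of the replicative helicase, had 11143, 11353 and 11819 at day 3 and 8043, 7696 and 8089 at day 5 (-0.53 ± 0.06, adjusted p = 1.75e-05). Bub1, a kinase of the spindle checkpoint, had 8778, 7571 and 7862 at day 3 and 5400.4, 5229.9 and 4876 at day 5 (-0.64 ± 0.07, adjusted p = 2.61e-05). Among 15 D cyclins, their kinases and the inhibitors of these kinases, 6 rose, and 3 did without null day 3 replicate 2. Ccnd2 had 485, 323 and 522 at day 3 and 1440.0, 1392 and 1954 at day 5 (1.86 ± 0.30, adjusted p = 0.000342), Ccnd3 had 1516, 1491 and 1838 at day 3 and 2648, 2465 and 2410.3 at day 5 (0.64 ± 0.12, adjusted p = 0.000878), and Rb1, the retinoblastoma gene, had 667, 505 and 593 at day 3 and 1081, 1163 and 1023 at day 5 (0.89 ± 0.13, adjusted p = 0.000119). Of 26 replication-dependent histone genes, whose copies share much of their sequence and may share reads, 10 fell and none rose, and 16 fell without floxed day 5 replicate 3. Hist1h1a, a linker histone gene, had 19929, 26142 and 21895 at day 3 and 15531, 16615 and 16041 at day 5 (-0.49 ± 0.11, adjusted p = 0.00383). Of 19 p53 targets, 4 rose and 4 fell, which is near the shares of all genes (22.8% and 22.4%). Without null day 3 replicate 1, 2 rose and 3 fell, and without replicate 2 of that day 1 rose and 3 fell. Btg2, an antiproliferative target, had 943, 939.8 and 1095 at day 3 and 2620.0, 2586 and 2822 at day 5 (1.43 ± 0.13, adjusted p = 5.07e-06), while Pmaip1, which encodes the death protein Noxa, had 3007, 4085 and 2495 at day 3 and 2005, 1464 and 1355 at day 5 (-0.98 ± 0.18, adjusted p = 0.000688).

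Metabolic genes and genes of the amino acid response mostly fell. Of 26 genes of cholesterol and fatty acid synthesis, 25 fell and none rose, with a median of −1.31 in the null line and −0.95 in the floxed line. Of 36 glycolysis and hypoxia genes, 27 fell and 1 rose, with medians of −0.80 and −0.91. Of 28 genes of the amino acid response and the unfolded protein response, 23 fell and none rose, with medians of −0.70 and −0.37. Of 28 genes of oxidative phosphorylation, 17 fell and none rose. Each of these genes had a mean of at least 10 on both days. For the lists of growth, cell cycle, histone, metabolic and amino acid response genes in which none rose by limma, none rose with edgeR or DESeq2 either. At an unadjusted p under 0.05 1 gene rose by limma, in the amino acid list. With the replicate number as a block 2 genes of the amino acid list rose and 25 fell, and 1 rose without null day 3 replicate 1 or floxed day 5 replicate 2. Insig1, the sterol sensor that retains SREBP in the endoplasmic reticulum, had 10143, 9600.3 and 7705 at day 3 and 1675, 1598 and 2253 at day 5 (-2.32 ± 0.18, adjusted p = 2.65e-06). Scd2, a stearoyl-CoA desaturase, had 26224, 26995 and 19482 at day 3 and 7144, 6519.7 and 5766 at day 5 (-1.89 ± 0.12, adjusted p = 1.21e-06). Srebf2, the transcription factor of sterol synthesis genes, fell as well, with 7243, 6008 and 5803 at day 3 and 4020.4, 2581 and 3154 at day 5 (-0.98 ± 0.13, adjusted p = 8.25e-05). In glycolysis, Eno1, which encodes enolase, had 53273, 45599 and 46316 at day 3 and 25463, 23780.0 and 26531 at day 5 (-0.94 ± 0.08, adjusted p = 3.29e-06), and Gpi1, glucose phosphate isomerase, had 42879.7, 31286 and 35655 at day 3 and 17109, 15837 and 17434 at day 5 (-1.11 ± 0.10, adjusted p = 6.51e-06). Slc16a3, the lactate exporter, had 11996, 11001 and 11748 at day 3 and 5710.1, 4724 and 4655 at day 5 (-1.21 ± 0.11, adjusted p = 7.43e-06), and Bnip3, a hypoxia target of mitochondrial turnover, had 9809, 7268 and 6285 at day 3 and 3118, 2885 and 2526 at day 5 (-1.43 ± 0.21, adjusted p = 0.000168). The glucose transporter gene Slc2a1 had 27478, 18806 and 26316 at day 3 and 20928, 16428 and 17984 at day 5, a difference that does not pass (-0.38 ± 0.16, adjusted p = 0.0714). It passed with the replicate number as a block (0.0316), without null day 3 replicate 2 (−0.55, 0.0138) without null day 5 replicate 1 (0.0494) and with DESeq2 (0.0451). Among the amino acid genes, Atf4, the transcription factor of the response, had 6479, 6579 and 4323 at day 3 and 2092, 2317 and 2279 at day 5 (-1.35 ± 0.18, adjusted p = 8.72e-05). Psat1, an enzyme of serine synthesis, had 8459.8, 8442 and 6896 at day 3 and 3178, 3367 and 3574 at day 5 (-1.23 ± 0.12, adjusted p = 8.01e-06). Gars, the glycyl-tRNA synthetase, had 13664, 13034 and 11161 at day 3 and 6467, 6771 and 6676 at day 5 (-0.92 ± 0.08, adjusted p = 6.56e-06), and Aars, the alanyl-tRNA synthetase, had 10644, 10939 and 9598 at day 3 and 6436, 5913 and 6081 at day 5 (-0.76 ± 0.09, adjusted p = 2.59e-05). No sample of day 5 reached the lowest sample of day 3 for the genes named with values here, apart from Slc2a1. Aldoa, also in this list, overlaps Fam57b, and reads of overlapping genes may be split between them.

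The interferon response genes went up. Of 28 measured, 18 rose and 1 fell, with a median of 1.12 in the null and 0.80 in the floxed line, and of the 25 at a mean of 10 or more on both days 15 rose and 1 fell. Rsad2, the antiviral enzyme viperin, had 31.8, 75 and 87.6 at day 3 and 723, 733 and 1019 at day 5 (3.75 ± 0.46, adjusted p = 4.5e-05). Ifit1, which binds foreign RNA, had 6.11, 8.03 and 18.8 at day 3 and 91.6, 83.9 and 74.9 at day 5 (2.96 ± 0.41, adjusted p = 0.000113). Ifih1, the cytoplasmic RNA sensor MDA5, had 80.7, 119 and 189 at day 3 and 396, 459 and 384 at day 5 (1.75 ± 0.36, adjusted p = 0.00178). Gbp2, a guanylate-binding protein, had 567, 1031 and 922 at day 3 and 2586, 3248 and 3422 at day 5 (1.91 ± 0.36, adjusted p = 0.000923). Stat2 and Irf9, which encode transcription factors of the response, did not pass, at -0.10 ± 0.17 and 0.29 ± 0.17 (adjusted p = 0.655 and 0.169). Irf9 passed without null day 3 replicate 3 (0.47, adjusted p = 0.0295). The member that fell was H2-K1, a class I antigen gene (-0.44 ± 0.11, adjusted p = 0.00771).

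**Figure D3:**
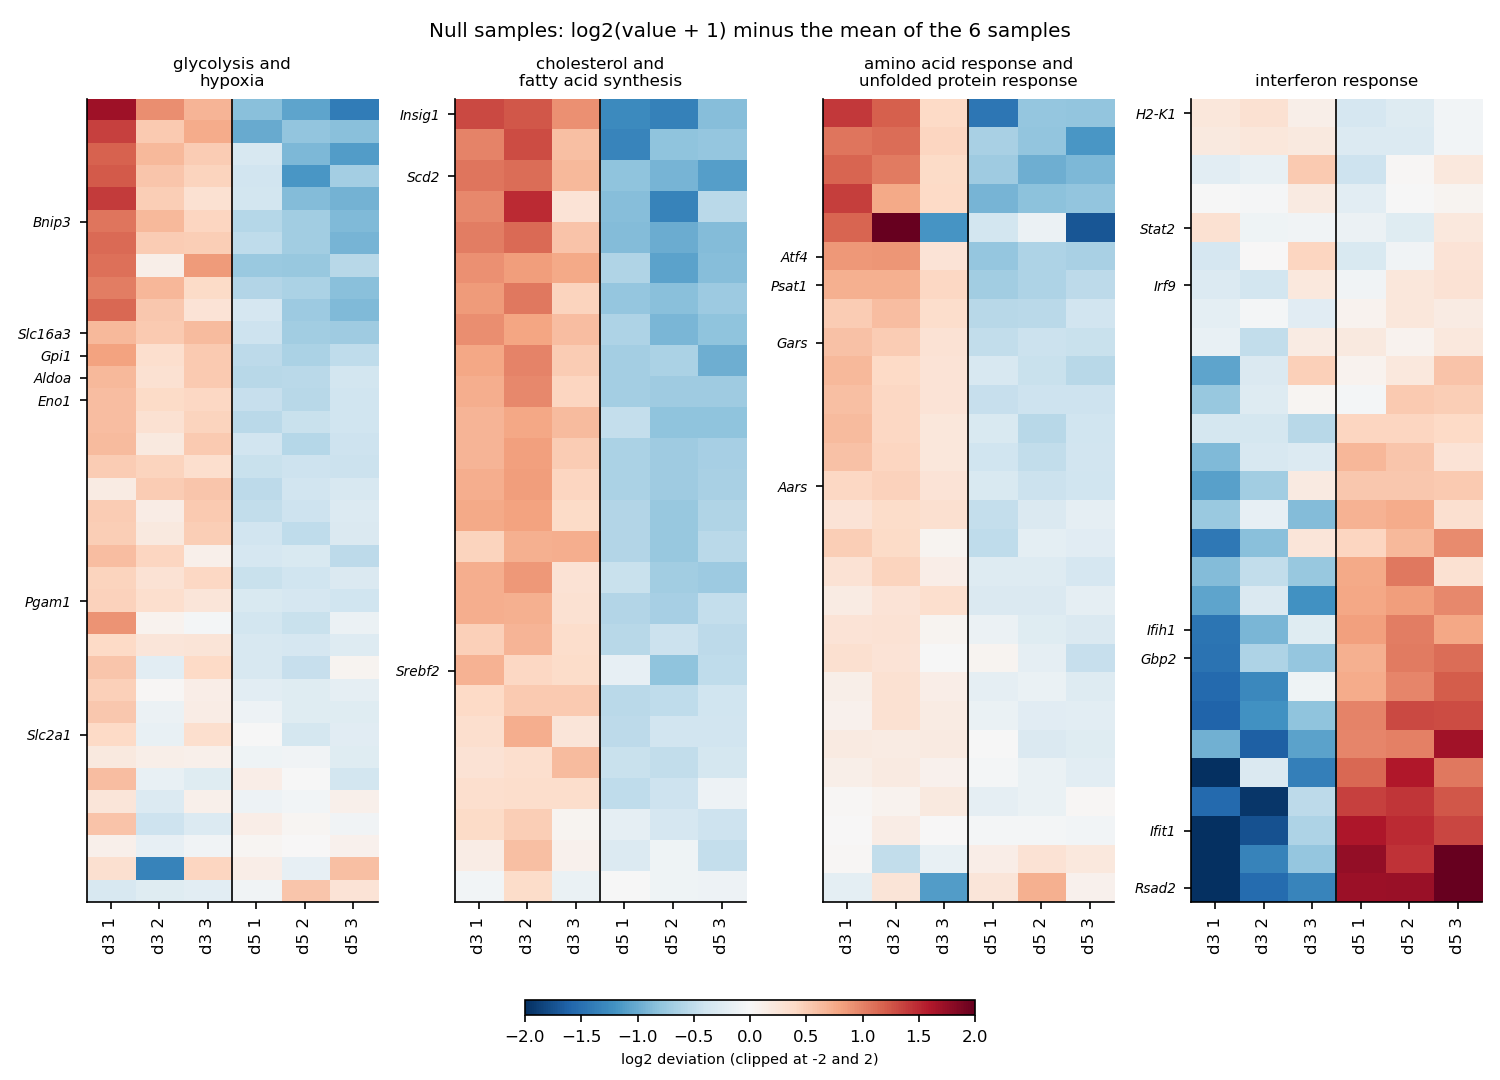
Each measured member of 4 lists (rows) in each null sample (columns), coloured by log2(value + 1) minus the mean of the 6 null samples and clipped at −2 and 2, with names for the genes named here. Most genes of the glycolysis, cholesterol and amino acid lists are above their mean in the 3 samples of day 3 and below it in the 3 of day 5. Most interferon genes are the other way round.

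Promoter sequences were read for 3 of the lists that have a known response element, and those of the other lists were not searched. RefSeq promoters (GRCm38.p6, the assembly of mm10) were matched by symbol for 11651 of the 16555 genes and searched over 300 bases, from 250 before to 50 after the start, on both strands. ACGTGC, the core of the hypoxia response element, was found in 17 of 32 glycolysis and hypoxia promoters (53.1%) and in 9.40% of all 11651. Of these 17 genes 11 fell and none rose, beside 27 and 1 of the 36 in the whole list. GAAANNGAA, the core of the interferon-stimulated response element, was found in 15 of 26 interferon promoters (57.7%) and in 8.18% of all, and 12 of these 15 genes rose, beside 18 of 28. TGATGNAA, the core of the amino acid response element bound by Atf4, was found in 8 of 25 promoters of its list (32.0%) and in 2.70% of all, and 6 of these 8 genes fell, beside 23 of 28. Whether genes with a match changed more often than the rest of their list was not tested. Each motif was searched on its own, and overlaps between matches of different motifs were not examined. A match describes letters in a window and does not show that a factor binds there. The 150 bases just upstream of the start are shown for 2 genes of each list, 5′ to 3′ on the gene's strand, with the matches in capitals in whichever orientation they occur. Slc16a3 lies at chr11:120948917-120949066 (plus strand), Pgam1 at chr19:41911721-41911870 (plus), Rsad2 at chr12:26456453-26456602 (minus), Ifit1 at chr19:34640739-34640888 (plus), Gars at chr6:55037851-55038000 (plus) and Aars at chr8:111033692-111033841 (plus). Slc16a3 and Pgam1 carry the hypoxia core, Rsad2 and Ifit1 the interferon core, and Gars and Aars the amino acid core.
Slc16a3: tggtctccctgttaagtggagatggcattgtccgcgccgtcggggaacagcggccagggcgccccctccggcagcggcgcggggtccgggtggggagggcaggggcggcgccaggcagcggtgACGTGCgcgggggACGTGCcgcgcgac
Pgam1: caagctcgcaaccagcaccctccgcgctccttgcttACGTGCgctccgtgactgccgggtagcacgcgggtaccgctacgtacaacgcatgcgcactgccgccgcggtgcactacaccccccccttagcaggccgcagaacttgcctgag
Rsad2: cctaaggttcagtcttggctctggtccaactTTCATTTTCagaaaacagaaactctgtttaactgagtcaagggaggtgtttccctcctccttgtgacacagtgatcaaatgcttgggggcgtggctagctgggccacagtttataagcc
Ifit1: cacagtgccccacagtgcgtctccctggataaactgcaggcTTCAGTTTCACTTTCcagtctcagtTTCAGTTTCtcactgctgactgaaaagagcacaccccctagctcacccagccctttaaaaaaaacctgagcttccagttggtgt
Gars: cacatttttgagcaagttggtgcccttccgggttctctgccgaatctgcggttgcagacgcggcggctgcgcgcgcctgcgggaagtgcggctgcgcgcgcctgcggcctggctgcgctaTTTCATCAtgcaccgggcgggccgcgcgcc
Aars: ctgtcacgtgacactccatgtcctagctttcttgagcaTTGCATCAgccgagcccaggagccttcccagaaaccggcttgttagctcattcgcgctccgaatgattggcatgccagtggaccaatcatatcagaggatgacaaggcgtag

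Chromatin regulators changed in both directions. Of 30 histone acetyltransferases, deacetylases and bromodomain proteins, 6 rose and 5 fell, against 22.8% and 22.4% of all genes. The count of falls was 3 without null day 3 replicate 1 or 3 or null day 5 replicate 2 or 3, and 8 without null day 5 replicate 1. Hdac7, a class II deacetylase, had 125, 88.4 and 148 at day 3 and 498, 442 and 514 at day 5 (2.03 ± 0.20, adjusted p = 1.12e-05), and Kat7, the acetyltransferase HBO1, had 7388, 6671 and 7304 at day 3 and 5545, 5182 and 5204 at day 5 (-0.42 ± 0.06, adjusted p = 0.000205). Of 29 Polycomb and trithorax genes, 7 rose and 6 fell, near the shares of all genes (22.8% and 22.4%). Phc1 had 6195, 5224 and 4931 at day 3 and 2586, 1633 and 1975 at day 5 (-1.42 ± 0.14, adjusted p = 1.03e-05), and Phc2 had 865, 1059 and 1406 at day 3 and 2715, 2899.8 and 3000.4 at day 5 (1.40 ± 0.21, adjusted p = 0.000185). Both encode polyhomeotic subunits of Polycomb repressive complex 1. Of 18 DNA methylation genes, 4 rose and 9 fell. Tet1, the dioxygenase of stem cells that oxidizes methylcytosine, had 9232, 5754 and 5318 at day 3 and 4562, 2143 and 2193 at day 5 (-1.24 ± 0.25, adjusted p = 0.00158), and its relative Tet3 had 741, 746 and 976 at day 3 and 2617, 2244 and 2072 at day 5 (1.5 ± 0.19, adjusted p = 6.03e-05). The maintenance methyltransferase Dnmt1 was at 0.11 ± 0.08 and does not pass (adjusted p = 0.289). Of 19 germline and 2-cell genes, 1 rose and 8 fell, and 4 fell without null day 3 replicate 1 or 3 or without null day 5 replicate 2. Sycp1, a protein of the synaptonemal complex, had 100.2, 103 and 125 at day 3 and 37.3, 38.4 and 64.2 at day 5 (-1.25 ± 0.25, adjusted p = 0.00146).

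Of 35 imprinted genes measured, 15 rose and 7 fell, against 22.8% and 22.4% of all genes. Igf2, the fetal growth factor expressed from the paternal allele, had 128, 120.5 and 197 at day 3 and 2169, 2518 and 2004 at day 5 (3.93 ± 0.29, adjusted p = 1.84e-06), and H19, the neighbouring maternally expressed RNA, had 66, 32.1 and 20.6 at day 3 and 623, 870.3 and 212 at day 5 (3.75 ± 0.47, adjusted p = 5.7e-05). Mest had 2897, 2785 and 2244 at day 3 and 11677, 12764 and 13915 at day 5 (2.28 ± 0.23, adjusted p = 1.38e-05), and Dlk1, a paternally expressed transmembrane protein, had 41.5, 26.8 and 34.9 at day 3 and 233, 249.3 and 295 at day 5 (2.89 ± 0.25, adjusted p = 4.82e-06). The 7 that fell included Phlda2 and Grb10. Phlda2, a maternally expressed restrainer of placental growth, had 508, 487 and 534 at day 3 and 81.4, 89.7 and 82.9 at day 5 (-2.58 ± 0.23, adjusted p = 6.08e-06), and Grb10, an adaptor that restrains insulin signalling, had 1479.8, 1544 and 1013 at day 3 and 245, 209.7 and 193 at day 5 (-2.61 ± 0.17, adjusted p = 1.35e-06).

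Beyond the lists, the genes with the largest changes were of several kinds. Ednrb, the endothelin receptor of neural crest, had 2.44, 2.68 and 25.9 at day 3 and 270.1, 428 and 762 at day 5 (6.00 ± 1.04, adjusted p = 0.000536). For Ednrb, 1 sample of day 3 stood well above the other two. Vnn1, a pantetheinase, had 0, 1.34 and 4.47 at day 3 and 71.2, 204 and 83.8 at day 5 (5.53 ± 0.66, adjusted p = 4.01e-05), and Mir124-2hg, the host transcript of a neuronal microRNA, had 1.22, 0 and 4.47 at day 3 and 71.2, 82.7 and 191 at day 5 (5.51 ± 0.77, adjusted p = 0.000109). The deepest fall was that of Ephx3, an epoxide hydrolase, with 351, 426 and 475 at day 3 and 18.1, 12.8 and 5.35 at day 5 (-5.13 ± 0.40, adjusted p = 2.65e-06). Foxi3, a forkhead factor of ectodermal placodes, had 413, 320.0 and 228 at day 3 and 45.2, 23.3 and 17.8 at day 5 (-3.50 ± 0.32, adjusted p = 6.51e-06), and Galr2, a galanin receptor, had 229.7, 324 and 376 at day 3 and 36.2, 14 and 14.3 at day 5 (-3.90 ± 0.32, adjusted p = 3.39e-06). Tll1, a protease that cleaves the BMP antagonist chordin, had 257, 279.8 and 177 at day 3 and 23.7, 26.8 and 11.6 at day 5 (-3.51 ± 0.31, adjusted p = 4.95e-06). Ackr4, a scavenging chemokine receptor, had 2201, 1510.1 and 2004 at day 3 and 106, 50.1 and 115 at day 5 (-4.45 ± 0.33, adjusted p = 1.84e-06), and it overlaps Acad11 on the other strand, so that reads of the pair may be shared if the counting took no account of strand. For 21 of the 16555 genes no read was found in any null day 3 library, and for 2 none in any null day 5 library.

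Most of the day change was also found in the floxed line, where 22.3% of the same genes rose and 19.5% fell. Of the 3776 genes that rose in the null line, 2710 rose in the floxed line, 1052 did not pass there and 14 fell. Of the 3712 that fell, 2340 fell, 1361 did not pass and 11 rose. Whether the changes differed was tested by the interaction of line and day. The null change was above the floxed change for 42 genes (0.254%) and below it for 39 (0.236%). With the replicate number as a block, these were 212 and 227. The counts of calls also depended on single libraries. Without floxed day 3 replicate 1, 2 genes were above and 1 below. Without floxed day 3 replicate 2 there were 3 and 2, and without floxed day 5 replicate 1 there were 31 and 14. Leaving out floxed day 3 replicate 3 gave 50 and 65, and leaving out floxed day 5 replicate 3 gave 9 and 7. Among the null libraries, null day 3 replicate 1 gave 2 and 1 when left out, null day 3 replicate 2 gave 2 and 2, null day 5 replicate 1 gave 5 and 4, null day 5 replicate 2 gave 2 and 1, and null day 5 replicate 3 gave 11 and 8. The counts stayed closer to those of all libraries without null day 3 replicate 3 (30 and 28) or floxed day 5 replicate 2 (50 and 41).

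**Figure D4:**
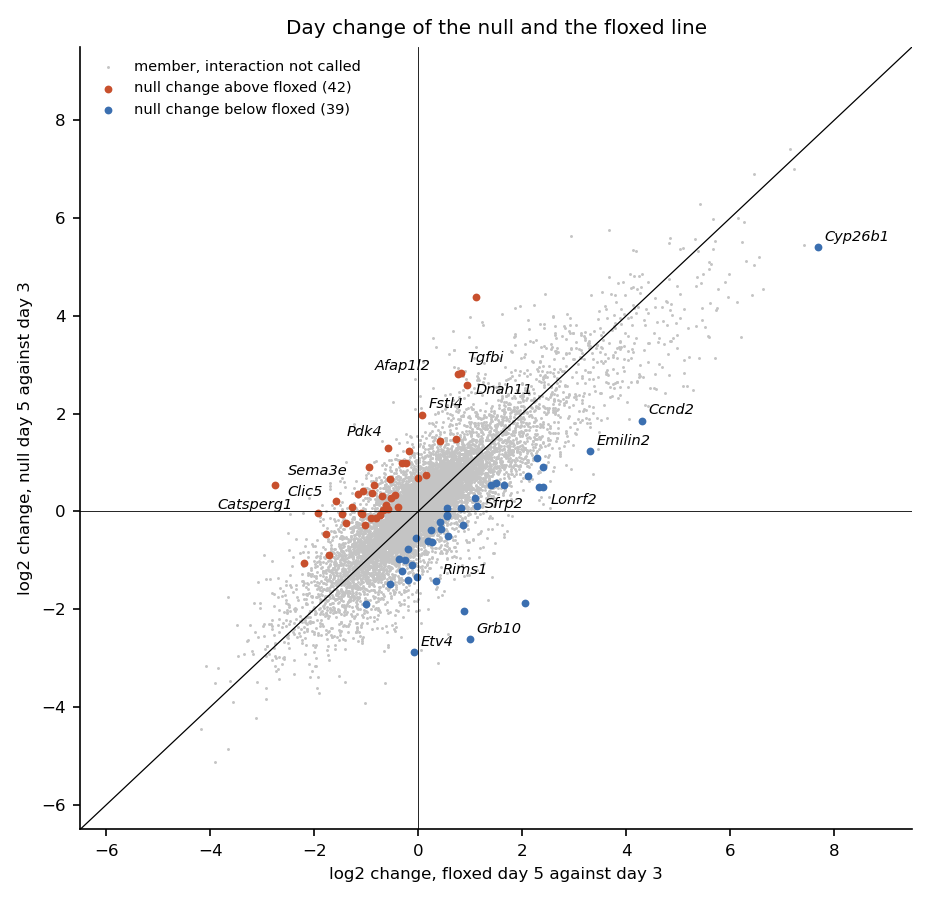
Day 5 minus day 3 on the log2(value + 1) scale in the floxed line (x axis) and in the null line (y axis) for each of the 16555 genes, with the diagonal of equal change. The 42 genes in red changed more upward in the null line and the 39 in blue more downward, and Grb10 lies far below the diagonal.

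Grb10 had the largest difference among the genes chosen by size. In the null line it fell from 1479.8, 1544 and 1013 to 245, 209.7 and 193, and in the floxed line it rose from 10255, 9649 and 13357 to 17999.9, 25136 and 23248 (1.0 ± 0.17, adjusted p = 0.000565). The interaction was -3.61 ± 0.25 (adjusted p = 2.92e-05). It was called without any single library. Each null sample was below each floxed sample of the same day. Etv4 fell in the null line, as given above, while the floxed samples had 256, 293 and 268 at day 3 and 236, 153 and 472 at day 5, and the interaction was -2.81 ± 0.52 (adjusted p = 0.0368). Ccnd2 rose in both lines, less in the null line, since the floxed samples had 272, 172 and 463 and 4562, 5052 and 7346 (interaction -2.45 ± 0.43, adjusted p = 0.0345). Cyp26b1 did likewise, with 6.78, 5.36 and 2.72 and 829, 1321 and 1502 in the floxed samples (interaction -2.30 ± 0.43, adjusted p = 0.0383). In the other direction, Tgfbi, an extracellular matrix protein induced by TGF-beta, had 225, 305 and 399.7 at day 3 and 2097, 1897 and 2548 at day 5 in the null line and 283, 297 and 277 and 627, 587 and 348 in the floxed line. Both lines rose and the null line by more (interaction 2.02 ± 0.32, adjusted p = 0.0308). Afap1l2, an adaptor of Src kinase signalling, had 119, 100.4 and 99.2 at day 3 and 596, 960.0 and 719 at day 5 in the null line and 242, 158 and 126 and 280.1, 399 and 210.4 in the floxed line (interaction 2.04 ± 0.37, adjusted p = 0.0353). Pdk4, a kinase that inhibits pyruvate dehydrogenase, had 96.5, 60.2 and 85.8 at day 3 and 174, 156 and 275 at day 5 in the null line and 74.5, 64.3 and 58 and 44.6, 45.2 and 40.2 in the floxed line (interaction 1.87 ± 0.34, adjusted p = 0.0353). Catsperg1 did not move in a way that passed in the null line, with 94.1, 104 and 110.0 at day 3 and 87, 86.2 and 133 at day 5, and went from 106, 95.4 and 102 to 27.8, 30.2 and 20.1 in the floxed line (interaction 1.89 ± 0.31, adjusted p = 0.0308). Of the 22 interaction calls among the genes named, the other 21 were lost without some single library. None of the 22 values changed sign under any alternative. Where leaving out 1 library lost the call, Odc1 lay between −0.64 and −0.56 (main fit −0.60). Lonrf2 lay between −1.96 and −1.71 (main fit −1.90), and Etv4 between −3.11 and −2.38. Leaving out floxed day 3 replicate 1 or 2, null day 3 replicate 1 or 2, or null day 5 replicate 1 or 2 lost 21 each, with adjusted p-values from 0.0520 to 0.116. Leaving out floxed day 5 replicate 3 lost 18 (0.0545 to 0.0965), null day 5 replicate 3 lost 17 (0.0528 to 0.0965), floxed day 5 replicate 1 lost 13 (0.0508 to 0.0847), null day 3 replicate 3 lost 9 (0.0528 to 0.0871), floxed day 5 replicate 2 lost 5 (0.0523 to 0.0571) and floxed day 3 replicate 3 lost 2 (0.0536 and 0.0612).

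**Figure D5:**
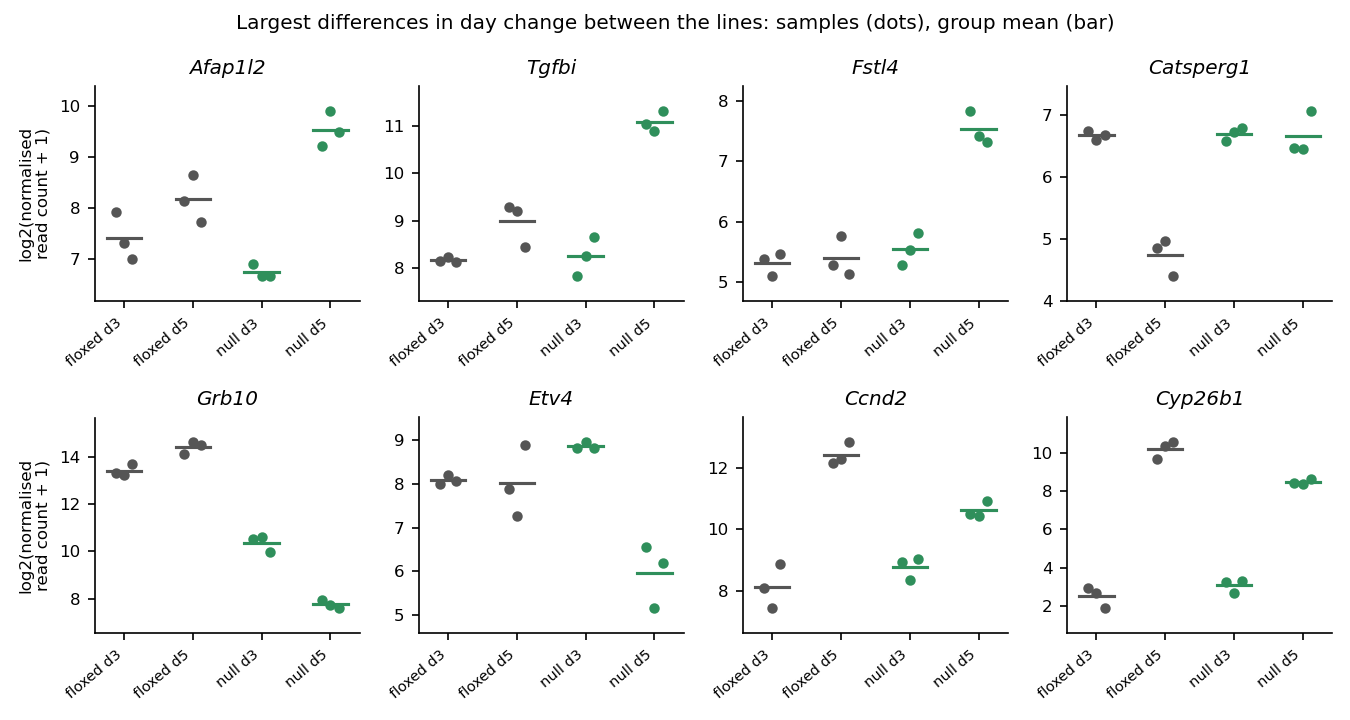
log2(normalized count + 1) in each of the 12 samples (dots) with group means (bars), by line and day, for the 4 largest differences of each sign among the genes chosen by rule. Grb10 falls from 1013 to 1544 at day 3 to 193 to 245 at day 5 in the null line and rises in the floxed line, and of these 8 genes the null days overlap for Catsperg1.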

How the data were processed

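RNA from embryoid bodies was measured in 12 samples, 3 for each of 2 lines on 2 days. Libraries were made with a stranded total RNA kit with 8 PCR cycles, per the labels' protocols. The deposited signal values are gene counts divided by a size factor. Per the submitters' processing notes, CASAVA 1.8.2, TopHat2 2.0.10, HTSeq 0.6.0 and DESeq 1.16.0 were used with the build mm10. Whether counting used strand is not given in the sources used here. Reads were recovered from the steps of the values, and 100.0% came out whole within 0.01. Symbols and positions came from GENCODE M21 (GRCm38), which names 18199 of the 18269 genes. The series text speaks of duplicates, while the labels and the table hold 3 samples in each group, and these were used.

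The 17000 genes whose mean reached 10 in any of the 4 groups were fitted with limma 3.58.1 (R 4.3.3, trend) as log2(value + 1) with 4 group means and 8 residual degrees of freedom, and the members are those that reached 10 in a null group. The pseudocount of 1 makes fitted changes of low genes smaller than their ratios. Alternatives were pseudocounts of 0.5 and 5, no filter, a mean of 50, upper-quartile and TMM scaling, null samples only, a replicate block, each library left out, and edgeR 4.0.16 and DESeq2 1.42.0 on the recovered reads. Deviations from the group means of null samples with the same number correlated at 0.270, 0.123 and 0.282, and those of other pairs at −0.306 to 0.0521. The numbers may thus pair the samples. The main fit did not use them, so its p-values ignore any pairing. Only the replicate block used them, with the same numbers in both lines. Pairing was not examined in the floxed line. Within null groups samples correlated at 0.984 to 0.988, and no 2 libraries agreed within sampling noise (lowest chi-square per degree of freedom 10.4).

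Genes were named by rule: Kat2a and Kat2b, the 12 largest rises and falls (called, higher group mean 100 or more, days not overlapping, no predicted name), the 5 members of each of 43 gene lists with the smallest p, other list members as examples, the 8 largest interactions of each sign, and 6 genes because the series names FGF signalling and Myc: T, Myc, Dusp6, Spry4, Fgf5 and Fgf8. Some genes that the rule chose are not reported here. The members and lists were chosen with earlier results of these data known.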

Additional observations from a re-analysis of the deposited data

Results flagged for a closer look

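Of the 42 and 39 genes whose day change differed between the null and the floxed line by the interaction test (limma, adjusted p under 0.05), 22 are named in the text, and of these 21 lost the call without some single library. No value of the 22 changed sign under any alternative. The null change was higher than the floxed change for Afap1l2 (2.04 on the log2 scale), Tgfbi (2.02), Fstl4 (1.90), Catsperg1 (1.89), Pdk4 (1.87), Dnah11 (1.65), Clic5 (1.51), Sema3e (1.48), Btg2 (1.01) and Trp53inp1 (0.80). It was lower for Grb10 (-3.61), Etv4 (-2.81), Ccnd2 (-2.45), Cyp26b1 (-2.30), Emilin2 (-2.08), Lonrf2 (-1.90), Sfrp2 (-1.83), Rims1 (-1.76), Psat1 (-0.92), Scd2 (-0.89), Sox2 (-0.63) and Odc1 (-0.60). Fstl4, a follistatin-like protein, had 37.9, 45.5 and 55.4 at day 3 and 227, 170.1 and 159.6 at day 5 in the null line and 40.7, 33.2 and 43.5 and 38.2, 53.6 and 34 in the floxed line on the same days. Sfrp2, a secreted Wnt antagonist, had 1541, 1358 and 1005 at day 3 and 1665, 1582 and 2209.7 at day 5 in the null line, a difference that does not pass (adjusted p = 0.065, and 0.0432 without null day 3 replicate 1, 0.0411 without floxed day 5 replicate 2 and 0.0208 without floxed day 5 replicate 3), and rose from 1294, 1329.8 and 1248 to 6021, 4918 and 9047 in the floxed line. Emilin2, a matrix glycoprotein, had 188, 179 and 209 at day 3 and 348, 489 and 542 at day 5 in the null line and 99.7, 90.1 and 151 and 964, 952 and 1484 in the floxed line. With upper-quartile scaling, Rims1 and Scd2 had an adjusted p of 0.0506 each, and with edgeR that of Rims1 was 0.0564 and that of Cyp26b1 0.0923. For Lonrf2 and Sema3e the null day change itself did not pass (adjusted p = 0.0805 and 0.0935, or 0.0393 and 0.0353 with the replicate number as a block). That of Clic5 did not pass either (0.35, adjusted p = 0.140, or 0.0493 in a fit of the null samples only). No group held 4 or more samples, so single samples were not tested for standing apart.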

How the results depend on the processing

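The counts of rising and falling genes stayed within 1.5 times of 3776 and 3712 under all alternatives run, from 3117 to 3878 and from 3115 to 3796 when 1 library was left out. With upper-quartile or TMM scaling all genes that rose were kept, and of those that fell 96.12% and 95.15% were kept. The median over all genes moved to 0.0122 and 0.0172. The interaction counts of 42 and 39 did not hold: they were 212 and 227 with a replicate block, 241 and 270 with DESeq2, and from 2 to 50 and from 1 to 65 when 1 library was left out. The cause was not tested. The replicate block lost no called day change among the genes named and gained those given beside the results and Pknox1 (adjusted p = 0.0456). When 1 null library was left out, 81.4% to 90.5% of all called rises and 81.9% to 85.3% of all called falls were kept. The called day changes followed 1 by 1 were 264, many of them chosen for a small p or a large change. They do not stand for all calls. Of these 264, 13 were lost without some single null library, among them Hoxa5 (adjusted p up to 0.152, and 0.0542 with a pseudocount of 5), Hoxb13 (up to 0.129, and 0.0587 with DESeq2), Cdkn1a, Mga, Mycl, Rbl1, Trp53inp1 and Hist1h3d. Tcl1 was also lost with the null samples only (0.0517). No called change among those followed reversed. Some values that did not pass changed sign. With 1 library left out they ran from −0.24 to 0.067 for Catsperg1, from −0.27 to 0.27 for Myc, from −0.032 to 0.49 for Fgf5 (its interaction from −0.11 to 0.52), from −0.021 to 0.28 for Fgfr1, from −0.29 to 0.13 for Gli1 and from −0.23 to 0.027 for Stat2. With edgeR Catsperg1 was at 0.010 and Myc at 0.00927. Fitted changes of genes near 0 on day 3 depend on the pseudocount: Wnt1 was 5.91, 3.69 with a pseudocount of 5 and 8.99 with edgeR. Depth limits statements on genes with fewer than 3 reads over a group.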

Other observations

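Gene classes other than protein-coding genes were not spread evenly over the directions. Of 14280 protein-coding genes, 3586 rose and 3389 fell. Of 113 small nucleolar RNA genes, 42 fell and none rose by limma, nor at an unadjusted p under 0.05 or with edgeR or DESeq2, and the median was −0.59. Of 360 processed pseudogenes, 4 rose and 50 fell (median −0.25), and their reads may belong to the parent genes. Long intergenic RNAs counted 41 rises and 78 falls among 359 (median −0.09). Of 268 antisense genes, 35 rose and 33 fell (median 0.12). These classes were looked at after the day results were known, and the counts are given with no test. Small nucleolar RNAs lie mostly in introns of host genes, many of them ribosomal protein genes, and the reads of hosts and guests were not separated here.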
